A study of Homo sapiens with 6 samples.

Results

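The genes that feed back to inhibit the ERK pathway were examined in the MDA-MB-436 line, derived from a triple-negative breast tumour that carries a BRCA1 mutation, with and without MUC1 silencing. They comprise 5 dual-specificity MAP kinase phosphatases (DUSP1, DUSP4, DUSP5, DUSP6 and DUSP7), 3 Sprouty genes (SPRY1, SPRY2 and SPRY4) and 2 Spred genes (SPRED1 and SPRED2). The rule names the genes and uses no measured value, though earlier results of these data were known when they were chosen. All 10 were among the 37887 gene rows and among the 15355 genes with enough counts to test. Every cell carried a tetracycline-inducible MUC1 shRNA in the pLKO-tet-puro vector. Control cells received 0.1% DMSO and shMUC1 cells received 500 ng/ml doxycycline (DOX), with 3 libraries in each group. Titles of the vehicle libraries mention a control shRNA, but their treatment labels and the design text describe vehicle on the same inducible cells, which was followed here. How long these cells were treated is not stated in the labels. An effect of DOX alone cannot be told apart from that of silencing, because no DOX-treated library with a scrambled shRNA was analysed here. Effects of the shRNA on transcripts other than MUC1 cannot be told apart either, because no library with a different MUC1 shRNA was analysed here.

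ERK is the last kinase of the RAS, RAF and MEK cascade that growth factor receptors switch on, and it drives proliferation and migration genes. Cells limit this signal by transcribing their own inhibitors in response to it. DUSP proteins remove phosphate from activated MAP kinases, Sprouty proteins act between the receptor and RAF, and Spred proteins bring neurofibromin to the membrane, where it switches RAS off. Transcripts of several of these genes are used as readouts of ERK output in tumours, though the phosphorylation of ERK itself was not measured in these libraries.

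Libraries held from 18678307 to 27825546 counts. Pairs of libraries within a group differed by a chi-square per degree of freedom of 2.79 to 5.55, and pairs across groups by 38.0 to 51.6, so no library was a copy of another. MUC1, the silenced gene, had read counts of 93, 84 and 102 with vehicle and of 72, 51 and 34 with DOX, which is a log2 change of -0.84 (SE 0.214, edgeR adjusted p = 0.00119). Its exons in GENCODE release 29 overlap those of AL713999.1 on the same strand, which could take some of its reads. The deposited counts hold no row for AL713999.1, and a loss of reads to it was not tested. The line markers KRT8, KRT18, VIM and CD44 were expressed in both groups and moved between them. In CPM (counts scaled to library size), KRT8 went from 426 ± 15.02 to 825 ± 14.6 and KRT18 from 131 ± 4.01 to 266 ± 6.11, while VIM went from 718 ± 26.1 to 417 ± 25.2 and CD44 from 1714 ± 27.7 to 1530 ± 16.2 (SD, n = 3 each; all 4 called). The log2 fold changes of KRT8, KRT18 and VIM, at 0.95, 1.02 and -0.78, exceeded in size that of every called inhibitor. ESR1 and PGR had at most 12 and 4 counts in any library. ERBB2 was at 44.7 ± 2.41 CPM in control and 39.0 ± 0.463 CPM in shMUC1 cells (SD, n = 3 each). Of 5 blood and endothelial markers, CD3E was at 0 in all libraries and CDH5 at 0 in all but 1, and the summed level of the 5 ran from 4.38 to 5.02 CPM in control and from 5.97 to 8.70 CPM in shMUC1 libraries. Those called did not move one way. CD14 went from 2.99 ± 0.223 to 6.28 ± 1.33 CPM and PTPRC from 0.242 ± 0.148 to 0.743 ± 0.198 CPM, both higher, and PECAM1 went from 1.42 ± 0.389 to 0.370 ± 0.186 CPM and was lower (SD, n = 3 each). Mitochondrially encoded genes took 3.35% to 4.17% of control counts and 4.94% to 5.22% of shMUC1 counts. In bulk RNA, more cells of a type and more RNA per cell cannot be told apart. The part of these shifts in the results was not tested.

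A few stretches of DNA and RNA known to govern such genes are shown first. DUSP1 is an immediate early gene, and its promoter holds a full cyclic AMP response element (CRE). The 250 bases before its start on chr5:172771196-172771445 (GRCh38.p14, minus strand, from RefSeq) are printed with the TATA box and every TGACG core, on either strand, in capitals.
DUSP1 promoter: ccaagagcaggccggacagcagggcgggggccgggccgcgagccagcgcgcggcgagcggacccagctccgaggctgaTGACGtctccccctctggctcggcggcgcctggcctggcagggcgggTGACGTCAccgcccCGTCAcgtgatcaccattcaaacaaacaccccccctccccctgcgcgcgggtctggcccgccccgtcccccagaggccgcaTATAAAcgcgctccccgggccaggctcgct

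The full element TGACGTCA starts at position -125 and the TATA box TATAAA at position -30 from the gene's start. Of 35093 promoter windows of this length, 1.65% hold TGACGTCA, 21.2% hold the core TGACG and 10.7% hold TATAAA, counting both strands. The core was found 4 times in the DUSP1 window, and 2 of those lie within the full element. Windows were at hand for 8 of the 10 members, 12 windows in all. DUSP4 and DUSP5 had none, so their promoters were not searched. TGACG occurred elsewhere once each in SPRY2 and SPRY4, and TATAAA in 1 SPRED2 window. The E-box CACGTG, also searched, occurred in the DUSP1 window at position -108 and in no other member window, against 6.34% of all windows. An AP-1 site (TGANTCA), an ETS site (CCGGAAGT) and a CArG box, the serum response element core, occurred in none of the 12 windows, against 6.57%, 3.43% and 1.16% of all windows. With shares this low, nothing is read from their absence in 12 windows. A match is a string of letters and says nothing of binding in these cells.

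Transcripts of feedback inhibitors are often short-lived, and AU-rich elements in the 3′ untranslated region (3′ UTR) are a known mark of such messages. DUSP1 carries the nonamer TTATTTATT at 2 places in a 3′ UTR of 672 bases (GENCODE release 29). The windows around them, with the nonamer in capitals, lie at chr5:172768645-172768669 and chr5:172768377-172768401 (GRCh38, minus strand).
DUSP1 first element: gctggtccTTATTTATTtaacttca
DUSP1 second element: aatataccTTATTTATTtttgtgta

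DUSP4 held the nonamer 1 time in 3962 bases, and the other 8 members lacked it, where 9.69% of 13020 tested genes with an annotated 3′ UTR hold it. The pentamer ATTTA ran from 0 copies in DUSP5 to 24 in SPRED1, whose 3′ UTR of 5585 bases is longer than those of 93.6% of these genes. Per kilobase, DUSP1 (5.95), SPRED1 (4.30) and SPRY1 (3.31) held the most, against a median of 1.71 over all genes.

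A second word was looked up because, in earlier results of these data, ATCAGTA in the 3′ UTR went with lower expression after DOX. Of the 10 members, SPRY2 and SPRED1 hold it. The windows lie at chr13:80336274-80336298 (minus strand) and chr15:38353853-38353877 (plus strand, both GRCh38), with the word in capitals.
SPRY2 site: tgtgaatcaATCAGTAtgtttttag
SPRED1 site: taagcactaATCAGTAtagtgcaac

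Over all genes with an annotated 3′ UTR, ATCAGTA was in 22.0% of 3255 lower genes, 9.40% of 3638 higher genes and 9.78% of 6127 genes not called. The word was picked from these same data, so its excess among lower genes is no separate support. The length of the 3′ UTR was not taken into account. Among the members the word was in 1 of 1 lower, 0 of 4 higher and 1 of 5 not called. Of the related lists below, paralogs held it in 1 of 2 higher and 0 of 3 lower genes. Core cascade genes held it in 1 of 6 higher and 0 of 5 lower. ERK transcriptional outputs held it in 0 of 3 higher and 1 of 5 lower, and receptors in 0 of 1 and 1 of 6. Immediate early genes held it in 0 of 4 higher and 0 of 2 lower. The word is given as a description, with no test, and its part in the fall of SPRED1 was not tested.

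To determine whether the feedback inhibitors change when MUC1 is silenced, all 15355 genes entered one quasi-likelihood fit in edgeR, and genes below an adjusted p of 0.05 were called. DUSP1, DUSP4, DUSP5 and SPRED2 rose and SPRED1 fell, by 20.1% to 43.9%, whereas DUSP6, DUSP7 and all 3 Sprouty genes were not called. The inhibitors therefore did not move one way. The 4 of 10 higher compare with 25.2% of all genes tested, and the 1 of 10 lower with 23.6%, so with both directions together the share called was near the background. The CPM ranges of the groups were apart for 5 of the 10, against 54.8% of all genes. None of the 10 was both called and changed by more than 2-fold, which 5.95% of all genes did. That count was 0 with edgeR, DESeq2 and limma-voom alike, and 0 at an unadjusted p under 0.05. The median log2 fold change was 0.12 over the members and 0.00058 over all tested genes.

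**Figure D1:**
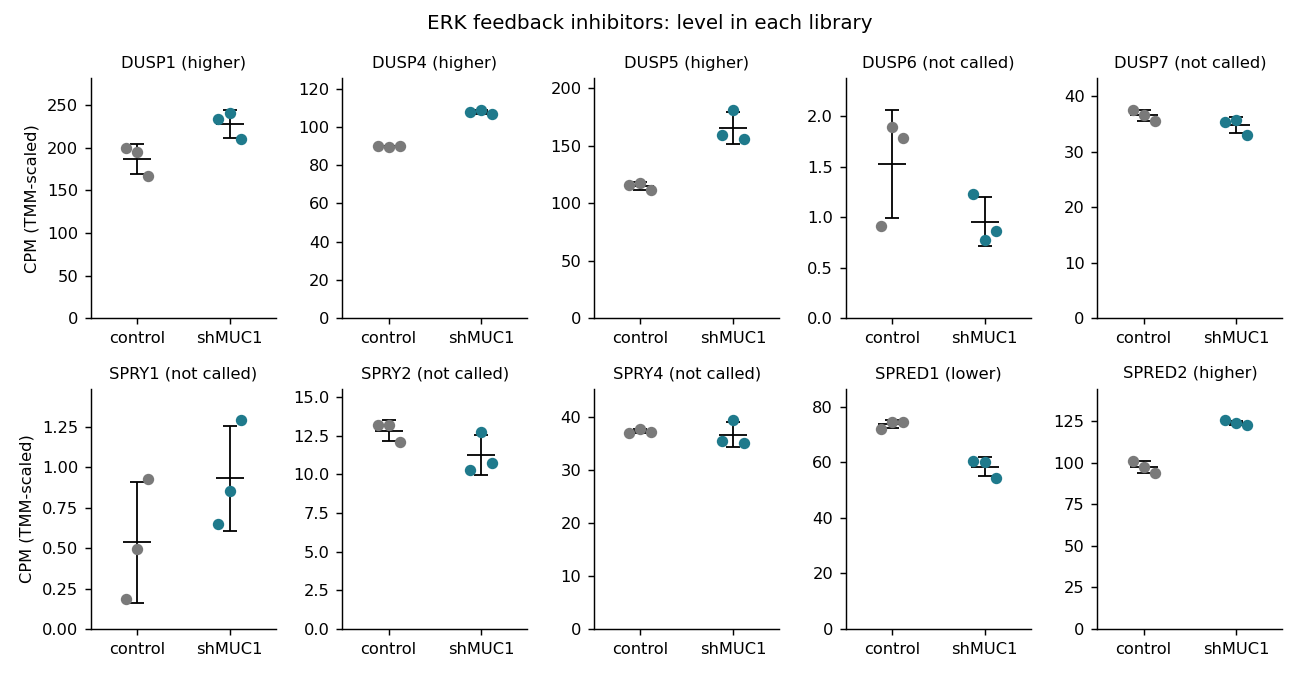
Level of each of the 10 feedback inhibitors in CPM (vertical axis, from 0, TMM-scaled) in the 3 control and 3 shMUC1 libraries (points), with the mean and SD (bars) and the edgeR call in each title. The shMUC1 points lie above every control point for DUSP1, DUSP4, DUSP5 and SPRED2 and below every control point for SPRED1, and the points mix for the other 5.

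All 3 nuclear phosphatases rose. DUSP1 (ENSG00000120129, chr5:172768090-172771195), an inducible phosphatase that acts on p38 and JNK as well as ERK, was at 199, 195 and 167 CPM in control libraries and at 234, 241 and 210 CPM in shMUC1 libraries. Every shMUC1 library lay above every control library, and control replicate 3 was the lowest of the 6. The log2 fold change was 0.29 (SE 0.0476), a rise of 22.3%, with an edgeR adjusted p of 3.04e-06. Without control replicate 3 the log2 fold change was 0.20 and the call held. With DESeq2 the log2 fold change was 0.28 and the DESeq2 adjusted p 0.00947. The other called members had DESeq2 adjusted p of 3.88e-08 or lower, so the call of DUSP1 was the least secure by that tool.

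DUSP4 (ENSG00000120875, chr8:29333064-29350668), a nuclear phosphatase of ERK, JNK and p38, was at 89.8, 89.6 and 90.1 CPM in control and at 108, 109 and 107 CPM in shMUC1 libraries. The libraries of each group lay close together, with an SD of 0.256 CPM in control and 1.08 CPM in shMUC1 cells. The log2 fold change was 0.26 (SE 0.0415), a rise of 20.1%, with an edgeR adjusted p of 1.55e-06.

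DUSP5 (ENSG00000138166, chr10:110497838-110511544), which dephosphorylates ERK and holds it in the nucleus, had the lowest adjusted p of the 10. It was at 116, 118 and 111 CPM in control and at 159, 181 and 156 CPM in shMUC1 libraries. The lowest shMUC1 library stood well above the highest control library. The log2 fold change was 0.53 (SE 0.0449), a rise of 43.9%, with an edgeR adjusted p of 2.02e-12. The pseudogenes DUSP5P1 and DUSP5P2 had at most 19 counts in any library against 2546 or more for DUSP5, so reads placed on these copies are few beside those of the gene.

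The cytoplasmic phosphatases DUSP6 and DUSP7, both selective for ERK, were not called. DUSP6 (ENSG00000139318, chr12:89347232-89353271), a widely used readout of ERK output, was lowly expressed in this line, with read counts of 20, 46 and 46 under vehicle and of 34, 20 and 16 under DOX. The groups overlapped, with control replicate 1 as low as the shMUC1 libraries. Its log2 fold change was -0.67 (SE 0.353, 95% interval -1.39 to 0.05, edgeR adjusted p = 0.116). Without control replicate 1 it was -0.92 with an adjusted p of 0.0339, so that library decides the call, and the gene was called under no other alternative that could be run. An annotated gene on the opposite strand, AC024909.2, overlaps DUSP6, and whether counting used strand is not given in the sources used here. The deposited counts hold no row for AC024909.2.

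DUSP7 (ENSG00000164086, chr3:52048919-52056550) was at 37.5, 36.6 and 35.5 CPM in control and at 35.3, 35.8 and 33.1 CPM in shMUC1 libraries. The log2 fold change was -0.07 (SE 0.0653, 95% interval -0.20 to 0.06, edgeR adjusted p = 0.392). The lower end of the interval stops short of the change of SPRED1.

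None of the Sprouty genes was called. SPRY4 (ENSG00000187678, chr5:142310427-142326455), the most abundant of the 3, was at 37.0, 37.8 and 37.1 CPM in control and at 35.4, 39.3 and 35.1 CPM in shMUC1 libraries. Its log2 fold change was -0.02 (SE 0.0654, 95% interval -0.16 to 0.11, edgeR adjusted p = 0.786), and its sign turned when shMUC1 replicate 1 or 3 was left out.

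SPRY2 (ENSG00000136158, chr13:80335976-80340951), which inhibits signalling from FGF receptors and sequesters the ubiquitin ligase CBL, was at 13.2, 13.2 and 12.1 CPM in control and at 10.3, 12.7 and 10.8 CPM in shMUC1 libraries. One shMUC1 library, replicate 2, lay among the control libraries. The log2 fold change was -0.19 (SE 0.109, 95% interval -0.41 to 0.04, edgeR adjusted p = 0.164).

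SPRY1 (ENSG00000164056, chr4:123396795-123403760) had read counts of 4, 12 and 24 under vehicle and of 18, 22 and 24 under DOX, with the lowest mean of any member. The 3 control libraries differed among themselves by more than the groups did. Its log2 fold change was 0.73 (SE 0.462, 95% interval -0.21 to 1.67, edgeR adjusted p = 0.197). Without control replicate 3 it was 1.39 with an adjusted p of 0.046, so that library decides the call. All 6 counts were even for SPRY1 and for DUSP6, against 1 of 6 for DUSP1 and from 2 to 5 of 6 for the other 7 members. Over all genes, 68.9% to 70.5% of counts from 1 to 20 in a library were even, and the cause was not tested. With halved counts neither gene was called, with adjusted p of 0.206 and 0.0828.

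The Spred genes went opposite ways. SPRED1 (ENSG00000166068, chr15:38252326-38357249), whose loss in the germline causes Legius syndrome, was at 72.1, 74.4 and 74.5 CPM in control and at 60.6, 60.3 and 54.5 CPM in shMUC1 libraries. It was lower in all 3 shMUC1 libraries, and it was the only called member to fall. SPRED1 fell by 20.5%, and its log2 fold change was -0.33 (SE 0.0515, edgeR adjusted p = 1.29e-06).

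SPRED2 (ENSG00000198369, chr2:65310851-65432637), its closest relative here, was at 101, 97.5 and 93.9 CPM in control and at 125, 124 and 123 CPM in shMUC1 libraries. It was higher in all 3 shMUC1 libraries. The log2 fold change was 0.35 (SE 0.0414), a rise of 27.2%, with an edgeR adjusted p of 6.03e-09.

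**Figure D2:**
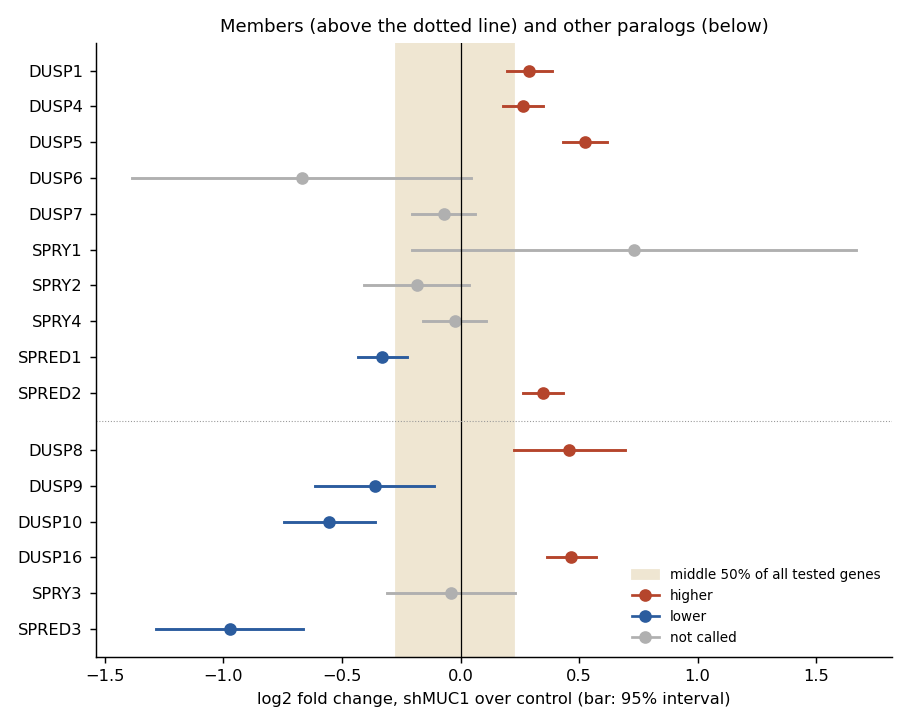
Log2 fold change of shMUC1 over control (horizontal axis) for the 10 members, above the dotted line, and 6 tested paralogs, below it. Points are edgeR estimates, bars are 95% intervals, colours give the call, and the shaded band holds the middle 50% of all 15355 tested genes (-0.27 to 0.22). DUSP6 and SPRY1 have the widest bars, and SPRED3 lies lowest at -0.97.

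Whether relatives moved by different amounts was examined with the ratio of a pair of members within each library, which does not depend on how libraries are scaled. For 6 pairs an exact two-sided permutation test over libraries was used, and 3 against 3 cannot go below p = 0.1, or 0.2 once adjusted over the 6 pairs here. The log2 ratio of SPRED1 to SPRED2 was -0.40 ± 0.0775 in control and -1.09 ± 0.0747 in shMUC1 cells (SD, n = 3 each), a difference of -0.68 with an exact p of 0.1 and an adjusted p of 0.2. In the edgeR fit, which does depend on scaling, SPRED1 was at 0.795 and SPRED2 at 1.27 times its control level. The log2 ratio of DUSP4 to DUSP5 went from -0.36 ± 0.0461 to -0.61 ± 0.103 (SD, n = 3 each), and that of SPRY2 to SPRY4 from -1.54 ± 0.0698 to -1.70 ± 0.0775 (SD, n = 3 each), both with an exact p of 0.1 and an adjusted p of 0.2. The gap between the SPRY2 to SPRY4 ratios of the groups was only 0.0085.

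The other pairs overlapped between groups. DUSP1 to DUSP4 differed by 0.03 with an exact p of 0.9 and an adjusted p of 0.9. DUSP6 to DUSP7 differed by -0.56 and SPRY1 to SPRY2 by 1.23, each with an exact p of 0.3 and an adjusted p of 0.36, and the few counts of DUSP6 and SPRY1 gave SDs of up to 1.25 (n = 3). Without control replicate 1 these differences were -0.91 and 0.58, without control replicate 2 that of DUSP6 to DUSP7 was -0.37, and without control replicate 3 they were -0.39 and 1.82.

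**Figure D3:**
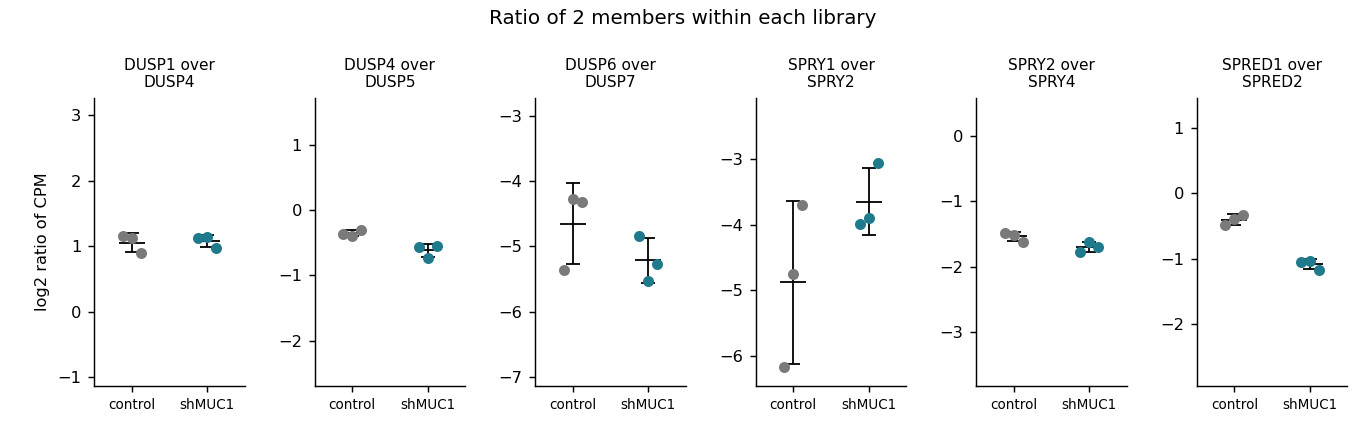
Log2 ratio of the CPM of 2 members within each library (vertical axes, each spanning the same range) in the 3 control and 3 shMUC1 libraries (points), with mean and SD (bars). The ratio of SPRED1 to SPRED2 shows the clearest step, and those of SPRY1 to SPRY2 and DUSP6 to DUSP7 scatter most.

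The levels of the members ranged widely. Different genes were compared as CPM per kilobase of annotated exon (RPKM). DUSP1 was highest, at 92.6 ± 8.61 RPKM in control and 113 ± 8.11 RPKM in shMUC1 cells (SD, n = 3 each). DUSP5 (44.0 ± 1.27 RPKM), SPRED2 (18.9 ± 0.686 RPKM), DUSP4 (12.4 ± 0.0353 RPKM) and SPRED1 (8.92 ± 0.167 RPKM) followed in control cells (SD, n = 3 each). The members at the top of this order are those that were called. DUSP7, SPRY4 and SPRY2 lay between 3.98 and 6.64 RPKM in control libraries, and DUSP6 and SPRY1 at 0.408 RPKM or below. In control cells each gene's libraries stood apart from those of the next gene in the order, except DUSP6 and SPRY1. In shMUC1 cells the order was the same down to SPRY2, but the ranges of DUSP7 and SPRY4 overlapped, and DUSP6 and SPRY1, which also overlapped, changed places. Lowly expressed members had few counts, so their changes were the least precise.

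Summed over the 5 phosphatases, the level was 430 ± 21.0 CPM in control and 537 ± 30.7 CPM in shMUC1 cells (SD, n = 3 each). The sum over the 3 Sprouty genes was 50.7 ± 0.743 and 48.8 ± 3.56 CPM, and that over the 2 Spred genes was 171 ± 2.43 and 182 ± 4.65 CPM (SD, n = 3 each). The rise of SPRED2 and the fall of SPRED1 partly offset each other in the Spred sum. By pattern over the 6 libraries, the genes most like DUSP5 among 11127 with a mean of at least 100 counts were PTPN3, CAV1 and TRMT11, with Pearson's r of 0.999, 0.998 and 0.998. A total of 1080 genes had an r over 0.95, since any gene that separates the groups scores high.

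The counts in the lists that follow are set against the 25.2% of all tested genes that were higher and the 23.6% that were lower, and nothing is read as particular to a list. Relatives of the members that were not on the list also went both ways. Of 7 paralogs, 6 were tested, 2 were higher and 3 lower. DUSP2 had 0 counts in all libraries. DUSP16 (65.1 ± 5.05 to 89.9 ± 1.97 CPM) and DUSP8 (8.29 ± 0.643 to 11.4 ± 0.42 CPM), phosphatases that prefer JNK and p38, were higher (SD, n = 3 each), with log2 fold changes of 0.47 and 0.46 and edgeR adjusted p of 7.93e-10 and 0.00114. DUSP10, another phosphatase of JNK and p38, went from 17.8 ± 0.592 to 12.2 ± 0.185 CPM (SD, n = 3 each), which is a log2 change of -0.55 with an edgeR adjusted p of 7.37e-06. The phosphatases that prefer JNK and p38 were therefore split as well. DUSP8 has a pseudogene copy, DUSP8P5, with 32 to 63 counts, so its count is uncertain.

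DUSP9, an ERK-selective cytoplasmic phosphatase like DUSP6, had a log2 fold change of -0.36 with an edgeR adjusted p of 0.0149, though its groups overlapped. SPRED3 had read counts of 158, 183 and 189 under vehicle and of 92, 101 and 75 under DOX. Its log2 fold change of -0.97 (SE 0.153, edgeR adjusted p = 1.48e-06) was the furthest from 0 of the 16 inhibitors and paralogs tested. SPRED3 was thus lower with SPRED1, whereas SPRED2 was higher. SPRY3 had a log2 fold change of -0.04 with an edgeR adjusted p of 0.827.

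Among 10 other negative regulators of the pathway, 3 were higher and 6 lower, with a median log2 fold change of -0.16. With DESeq2, 2 were higher and 5 lower, and without control replicate 2, 2 were higher and 4 lower. LRIG1, a membrane protein that promotes the degradation of ERBB receptors, dropped from 35.1 ± 1.44 to 10.1 ± 1.12 CPM (SD, n = 3 each), which is a log2 change of -1.78 (SE 0.088, edgeR adjusted p = 4.34e-19). NF1, which encodes neurofibromin, the partner through which Spred proteins switch RAS off, declined from 220 ± 2.33 to 146 ± 5.27 CPM (SD, n = 3 each), which is a log2 change of -0.59 (SE 0.0368, edgeR adjusted p = 3.22e-16). ATCAGTA was in the 3′ UTR of 1 of the 6 lower genes of this list (NF1), 1 of the 3 higher and the 1 not called. RASA1, another RAS GTPase-activating protein, and LZTR1, an adaptor for RAS degradation, were lower with log2 fold changes of -0.48 and -0.41 and edgeR adjusted p of 7.48e-07 and 0.0383.

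The kinases and adaptors of the cascade were split. Of 17 tested, 6 were higher, 5 lower and 6 not called, and the median log2 fold change was 0.04. That median came to 0.0035 when control replicate 3 was left out and to 0.06 when shMUC1 replicate 3 was. KSR1, a scaffold for RAF and MEK, and SHC1, a receptor adaptor, were lower with log2 fold changes of -0.72 and -0.48, and GAB1, a docking protein, and BRAF were higher at 0.43 and 0.33 (edgeR adjusted p 2.73e-05, 2.52e-10, 2.56e-07 and 4.21e-08).

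Of 11 receptors tested that feed the cascade, 6 were lower and 1 higher, beside 23.6% lower and 25.2% higher over all genes. Their median on the log2 scale was -0.34. AXL went from 382 ± 1.06 to 247 ± 6.75 CPM and EGFR from 395 ± 6.21 to 310 ± 4.25 CPM (SD, n = 3 each), log2 fold changes of -0.63 and -0.35 with edgeR adjusted p of 1.87e-18 and 7.43e-12. FGFR3 and IGF1R were lower with log2 fold changes of -0.59 and -0.56 and edgeR adjusted p of 0.00383 and 1.15e-10.

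Other genes that ERK is known to switch on were also split, with 3 of 12 higher, 5 lower and a median log2 fold change of -0.10, or -0.07 without shMUC1 replicate 2. FOSL1, an AP-1 subunit, went down from 395 ± 10.3 to 244 ± 7.44 CPM (SD, n = 3 each), which is a log2 change of -0.70 (SE 0.0335, edgeR adjusted p = 1.84e-19). PHLDA1 and EPHA4 fell by 0.74 and 0.65 on the log2 scale, with edgeR adjusted p of 2.91e-16 and 4.54e-16, whereas MYC rose by 0.42 with an edgeR adjusted p of 3.26e-10. FOSL1, PHLDA1 and EPHA4 thus went down in the same libraries in which DUSP1, DUSP4 and DUSP5 went up. The 3 higher genes of this list, MYC among them, went up with those phosphatases, and SPRED1 went down with the 5 lower ones. Of the 3, LIF had groups that overlapped (37.1 ± 3.12 to 41.7 ± 3.31 CPM, SD, n = 3 each) and an edgeR adjusted p of 0.0405. With DESeq2, 2 genes of this list were higher.

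Immediate early genes, the class to which DUSP1 belongs, had the highest median of these lists. Of 9 tested, 4 were higher and 2 lower, with a median log2 fold change of 0.46. ATF3, JUNB and ZFP36 were higher by 0.79, 0.63 and 0.51 on the log2 scale, with edgeR adjusted p of 1.59e-08, 1.33e-11 and 7.89e-06. EGR3, the other higher gene, had read counts of 6, 20 and 15 under vehicle and of 20, 26 and 34 under DOX. Its groups overlapped in CPM and its edgeR adjusted p was 0.0497. With DESeq2 or limma-voom, 3 genes of this list were higher. EGR1, which ERK signalling induces, had read counts of 638, 582 and 558 under vehicle and of 314, 352 and 218 under DOX. Its log2 fold change was -1.02 (SE 0.102, edgeR adjusted p = 1.24e-10). The median was 0.12 over the 7 that average 50 counts or more. It was 0.27 without shMUC1 replicate 3, 0.29 without control replicate 1 and 0.30 without control replicate 2, over 10 genes tested in each.

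**Figure D4:**
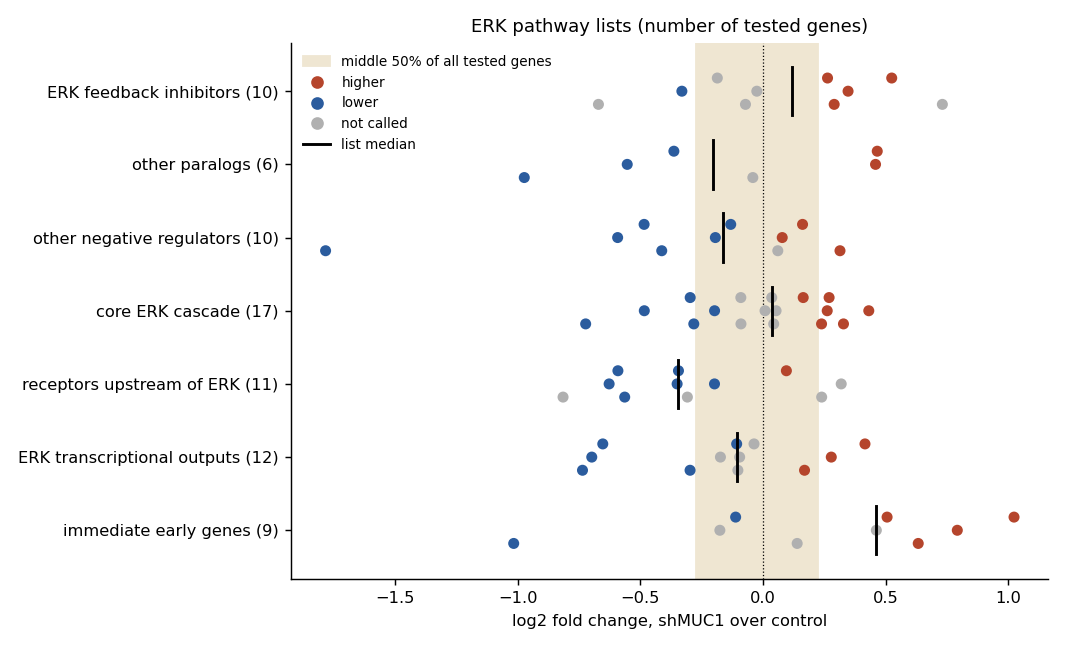
Log2 fold change of shMUC1 over control (horizontal axis) for each tested gene (points) of 7 ERK pathway lists, with the number of tested genes beside each name. Colours give the edgeR call, black bars are list medians, and the shaded band holds the middle 50% of all tested genes. Each list has called genes on both sides of 0, and the receptors have the lowest median, at -0.34.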

How the data were processed

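The values deposited by the authors are raw counts by gene symbol for 6 libraries, made from total RNA with a stranded poly(A) mRNA kit, and 0 columns belonged to no sample. The submitters' processing notes name CASAVA 1.8.2, STAR 2.7.9a, featureCounts, DESeq2 1.24.0 and the build GRCh38.p7. The annotation release and strand setting are not given in the sources used here. Counts were tested with edgeR 4.0.16 in R 4.3.3 (TMM scaling, filterByExpr, quasi-likelihood test, group as the only term), two-sided, with Benjamini-Hochberg adjustment over 15355 genes. The scripts were tested on simulated data. DESeq2 1.42.0 and limma 3.58.1 (voom) were among the 15 alternatives. CPM used TMM-scaled totals, and SEs and 95% intervals came from the quasi-likelihood F statistic. The libraries carry no molecular identifiers. Cultures were in triplicate per the labels, and the p-values rest on the spread between these libraries. In edgeR each gene's variance was drawn toward that of the other genes, so a p-value does not measure that gene's spread alone.

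The members and lists were chosen with earlier results of these data known. Named were all members, MUC1, the tested paralogs and up to 4 genes per list with the largest called change and no overlap in CPM. ESR1, PGR, ERBB2, the blood and endothelial markers and the atypical DUSP genes fall outside this rule. So do DUSP2, LIF, EGR3, the genes most like DUSP5, the pseudogenes and the overlapping genes. Exon lengths, gene positions and 3′ UTRs came from GENCODE release 29 (GRCh38), and promoters from RefSeq.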

Additional observations from a re-analysis of the deposited data

How the results depend on the processing

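DUSP1, DUSP4, DUSP5, SPRED1, SPRED2 and MUC1 kept their direction and call under all 15 alternatives run for each. Their log2 fold changes ranged from 0.20 to 0.35, 0.24 to 0.27, 0.46 to 0.57, -0.35 to -0.28, 0.31 to 0.38 and -1.01 to -0.75. DUSP7 and SPRY2 kept their direction and stayed uncalled. Leaving out libraries one at a time moved DUSP6 between -0.92 and -0.49, SPRY1 between 0.35 and 1.39 and SPRY4 between -0.078 and 0.0067, and the sign of SPRY4 turned to 0.0033 without shMUC1 replicate 1 and to 0.0067 without shMUC1 replicate 3. Members higher numbered from 4 to 5 and members lower from 1 to 2 in these fits, through SPRY1 without control replicate 3 and DUSP6 without control replicate 1. The DUSP1 to DUSP4 ratio differed by between -0.055 and 0.079 without one library, with -0.055 without control replicate 3 and -0.0076 without shMUC1 replicate 2. A mean of at least 50 counts leaves out DUSP6 and SPRY1, which have no value there.

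In the same fits the ratios of DUSP6 to DUSP7 and SPRY1 to SPRY2 differed by -0.91 to -0.37 and 0.58 to 1.82. Without one library the medians ranged from 0.0035 to 0.06 for the core cascade, from 0.27 to 0.48 for immediate early genes, from -0.14 to -0.07 for transcriptional outputs, from -0.21 to -0.14 for other negative regulators and from -0.36 to -0.31 for receptors, with 0 to 1 receptor higher, and from 1 to 3 immediate early genes were lower. With no low-count filter the receptor median was -0.32 and 1 immediate early gene was lower, and with a mean of at least 50 counts the immediate early median was 0.12, over fewer genes. With 1 library left out, 2 to 3 other negative regulators were higher and 4 to 6 lower. In those fits 3 to 4 immediate early genes and 2 to 3 transcriptional outputs were higher. The causes were not tested.

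The deviations of control and shMUC1 libraries that share a replicate number correlated at 0.0167, -0.0311 and -0.0359, so these numbers did not pair them. With a replicate block, 4 members were higher and 1 lower, the log2 fold change of MUC1 was -0.86, and none of the members changed call. Over all genes, the block gave 3885 higher and 3591 lower against 3866 and 3617. Depth limits DUSP6 and SPRY1 most, with at most 46 and 24 counts in a library.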

Other observations

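The table also held 14 atypical or otherwise unlisted DUSP genes, looked at after the values of the members were known. Of these, 10 were tested, 3 were higher and 1 lower, beside 25.2% higher and 23.6% lower over all genes tested. DUSP3, a small phosphatase that acts on ERK and JNK, was at 116 ± 0.506 CPM in control and 153 ± 5.34 CPM in shMUC1 cells (SD, n = 3 each), which is a log2 change of 0.40 (SE 0.0392, edgeR adjusted p = 4.99e-11). DUSP23 and DUSP11 were higher with log2 fold changes of 0.39 and 0.20 and edgeR adjusted p of 0.0111 and 0.00708, and DUSP19 was lower at -0.33 with an edgeR adjusted p of 0.0322. DUSP14 had read counts of 38, 48 and 62 under vehicle and of 56, 2 and 66 under DOX, so shMUC1 replicate 2 stood far from the other 5 for this gene, with a log2 fold change of -0.18 and an edgeR adjusted p of 0.766.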
